A study of Mus musculus with 12 samples.

Results

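Bhlhe40, Nfil3, Id2, Id3 and Zeb2 encode transcriptional regulators, and the accessible regions around them were followed in regulatory T cells (Treg) with and without Ikaros, at rest and after stimulation. Members were all regions of the deposited accessibility table that overlapped the body of one of the 5 genes or the 50 kb on either side of it, on the mm9 mouse assembly with GENCODE vM1 gene models. The rule found 81 of the 118680 regions in the table: 17 at Bhlhe40, 17 at Nfil3, 7 at Id2, 20 at Id3 and 20 at Zeb2. Nearness alone made a region a member, and which gene it acts on was not measured. The libraries came from YFP+ spleen Treg of B6-background mice. Controls (WT) were Foxp3-YFP-Cre, and the knockout (Ikzf1-cko) was Ikzf1-fl-Foxp3-YFP-Cre, with a floxed allele of the gene for Ikaros. In both genotypes the Foxp3 locus drives the YFP-Cre, so the controls have Cre as well, and the floxed allele is recombined in cells that turn Foxp3 on. Cells were used directly ex vivo or after 4 hr on plate-bound anti-CD3 and anti-CD28, with 3 libraries in each of the 4 groups, 12 in all, from 100000 cells each. In the assay, ATAC-seq, a transposase cuts open chromatin, so reads pile up where DNA is accessible. The age of the mice used for it was not given in the sources used here.

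BHLHE40 (also called DEC1) is a basic helix-loop-helix repressor that binds E-box sequences, is induced through the T cell receptor and controls cytokine genes of T helper cells. NFIL3 (E4BP4) is a basic leucine zipper repressor of D-box sequences, required for natural killer and innate lymphoid cells and linked to cytokine control in CD4+ T cells. ID2 and ID3 are helix-loop-helix proteins that lack the DNA-binding basic part. They pair with E proteins such as E2A, keep these off E-boxes, and are needed together to maintain Treg. ZEB2 is a zinc finger E-box repressor known from terminally differentiated effector and natural killer cells. Ikaros itself is a zinc finger protein that recognises sites with a GGGAA core and recruits chromatin remodelling and deacetylase complexes.

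The 5 regions printed here are among those that were more accessible in Ikzf1-cko than in WT Treg past both thresholds given below, in at least one condition. Each line gives the 300 bases at the centre of the region, from the forward strand of mm9, with GGGAA or its reverse complement TTCCC and the AP-1 motif TGACTCA or its reverse complement TGAGTCA in capitals. 3 lie downstream of Bhlhe40, which is on the forward strand. The Nfil3 one is inside that gene and the Zeb2 one past its 3′ end, both genes being on the reverse strand.
Bhlhe40, 11.4 kb from the start site (OCR_95737), chr6:108622141-108622440: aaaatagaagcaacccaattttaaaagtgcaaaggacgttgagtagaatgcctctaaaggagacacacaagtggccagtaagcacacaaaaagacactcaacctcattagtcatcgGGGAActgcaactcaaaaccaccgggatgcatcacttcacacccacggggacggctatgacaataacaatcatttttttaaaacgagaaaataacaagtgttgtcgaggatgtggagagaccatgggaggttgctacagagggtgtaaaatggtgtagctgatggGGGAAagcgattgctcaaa
Bhlhe40, 27.7 kb (OCR_95741), chr6:108638437-108638736: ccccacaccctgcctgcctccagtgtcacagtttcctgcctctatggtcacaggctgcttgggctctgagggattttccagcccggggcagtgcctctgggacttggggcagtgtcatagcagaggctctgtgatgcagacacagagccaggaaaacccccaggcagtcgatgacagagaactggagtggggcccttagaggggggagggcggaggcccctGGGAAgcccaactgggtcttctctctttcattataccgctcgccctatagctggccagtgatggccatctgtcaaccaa
Bhlhe40, 43.9 kb (OCR_95743), chr6:108654612-108654911: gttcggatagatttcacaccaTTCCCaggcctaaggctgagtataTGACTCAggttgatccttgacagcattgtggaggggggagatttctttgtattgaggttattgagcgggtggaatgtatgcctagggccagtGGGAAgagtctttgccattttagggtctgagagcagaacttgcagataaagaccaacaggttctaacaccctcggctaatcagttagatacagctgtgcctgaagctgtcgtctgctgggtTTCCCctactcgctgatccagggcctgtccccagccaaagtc
Nfil3 intron, 4.4 kb (OCR_29736), chr13:53071898-53072197: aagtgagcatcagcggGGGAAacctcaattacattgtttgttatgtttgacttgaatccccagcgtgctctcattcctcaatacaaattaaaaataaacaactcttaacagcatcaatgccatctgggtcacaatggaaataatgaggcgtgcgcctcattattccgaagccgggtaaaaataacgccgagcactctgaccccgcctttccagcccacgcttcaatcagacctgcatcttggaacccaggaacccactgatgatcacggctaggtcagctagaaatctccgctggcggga
Zeb2, beyond the 3′ end (OCR_62102), chr2:44811849-44812148: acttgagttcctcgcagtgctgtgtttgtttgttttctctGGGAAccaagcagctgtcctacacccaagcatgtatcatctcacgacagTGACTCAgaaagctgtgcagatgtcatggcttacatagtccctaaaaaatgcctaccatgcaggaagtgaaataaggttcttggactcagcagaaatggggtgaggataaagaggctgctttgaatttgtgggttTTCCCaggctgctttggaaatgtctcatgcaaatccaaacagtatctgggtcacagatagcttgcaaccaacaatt

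All 5 of these windows held GGGAA, from 1 match at the 27.7 kb Bhlhe40 region and the Nfil3 intron to 3 matches 43.9 kb from Bhlhe40. The AP-1 letters occurred in the windows at 43.9 kb of Bhlhe40 and at Zeb2. GGGAA is a short and common word: 59.3% of the central 300-base windows of all 69956 tested regions with full sequence held it on one strand or the other, and 38 of the 57 tested member regions did (66.7%). TGACTCA was in 10.6% of all windows and in 13 of the 57 (22.8%), among them 4 of 12 at Bhlhe40 and 4 of 18 at Id3. A match marks letters and not binding.

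Read totals in the regions ran from 4808916 to 15355521 per library, and every Ikzf1-cko library was deeper than every WT library. The stimulated WT libraries stood apart from the rest: 42.0 to 43.6% of their reads lay in regions over a transcript start site, against 45.3 to 52.1% elsewhere, and the weakest 20% of tested regions held 6.0 to 7.1% of their reads, against 1.9 to 3.62% elsewhere. All comparisons of stimulated WT Treg rest on these libraries, and genotype and depth went together. With every library thinned to 4808916 reads, an alternative chosen after seeing the data, 3 members passed both thresholds given below ex vivo and 5 stimulated for genotype, and 2 in each stimulation comparison, beside 2, 5, 3 and 2 without thinning. Start-site regions of the T cell and Treg genes Cd3e, Cd4, Foxp3, Il2ra and Ctla4 read 10.8 to 65.6 FPKM (the density of reads per kb of region, scaled to the reads of the library). Of 11 markers of other lineages, 6 (the B cell genes Pax5 and Cd79a, the myeloid genes Lyz2 and Spi1, Ncr1 of natural killer cells and Klf1 of erythroid cells) had no region over a start site, and the other 5 read 1.67 to 14.7 FPKM. Among those 5, the CD8 T cell markers moved with genotype, Cd8a from a mean of 8.45 FPKM in WT to 3.58 in Ikzf1-cko ex vivo and Cd8b1 from 13.4 to 8.92, and stimulated from 9.47 to 5.81 and from 11.8 to 9.52. Gata1, an erythroid gene, went from 8.87 to 5.28 ex vivo and from 5.91 to 8.42 stimulated. Their part in the results below was not tested. The 31 regions over Ikzf1 summed to 295 to 335 CPM (reads scaled to the library total) ex vivo and 197 to 251 CPM stimulated in WT and 279 to 325 (ex vivo) or 255 to 293 (stimulated) in Ikzf1-cko. The position of the floxed segment was not given in the sources used here, so this sum checks nothing about the deletion.

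Counts were compared with edgeR's quasi-likelihood test, one model for all 12 libraries, after a filter of at least 3.6 CPM in 3 or more libraries. 69957 regions passed the filter, 57 of the 81 members among them: 12 at Bhlhe40, 10 at Nfil3, 5 at Id2, 18 at Id3 and 12 at Zeb2. A region passed the test at a false discovery rate (FDR) under 0.05, and was called when its log2 fold change also exceeded 1 in size. Errors of log2 fold changes are standard errors, and values per group are means ± SD of 3 libraries. In these bulk libraries, more accessible DNA per cell and more cells with accessible DNA cannot be told apart.

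The first question was what the 5 genes' regions look like in Treg that lack Ikaros. Ex vivo, 14 of the 57 tested regions were more accessible in Ikzf1-cko than in WT and 1 was less accessible. 8 of the 14 were at Bhlhe40, 3 at Nfil3, 2 at Zeb2 and 1 at Id2; the one that fell was at Id3. After stimulation 20 were more accessible (9 at Bhlhe40, 5 at Zeb2, 4 at Nfil3, 2 at Id2) and 3 less, all at Id3. Across the whole table, 8.78% of tested regions passed the test as higher and 12.7% as lower ex vivo, and 20.4% and 30.7% after stimulation. Calls were few: 2 members higher ex vivo and 5 after stimulation, with none lower, where 0.588% of all regions were called higher and 4.04% lower ex vivo and 1.16% and 20.2% after stimulation. Median log2 fold changes over the tested members were 0.13 ex vivo and 0.18 stimulated, beside -0.13 and -0.11 over all regions. Each gene's regions share a locus and are not replicates of one another.

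**Figure D1:**
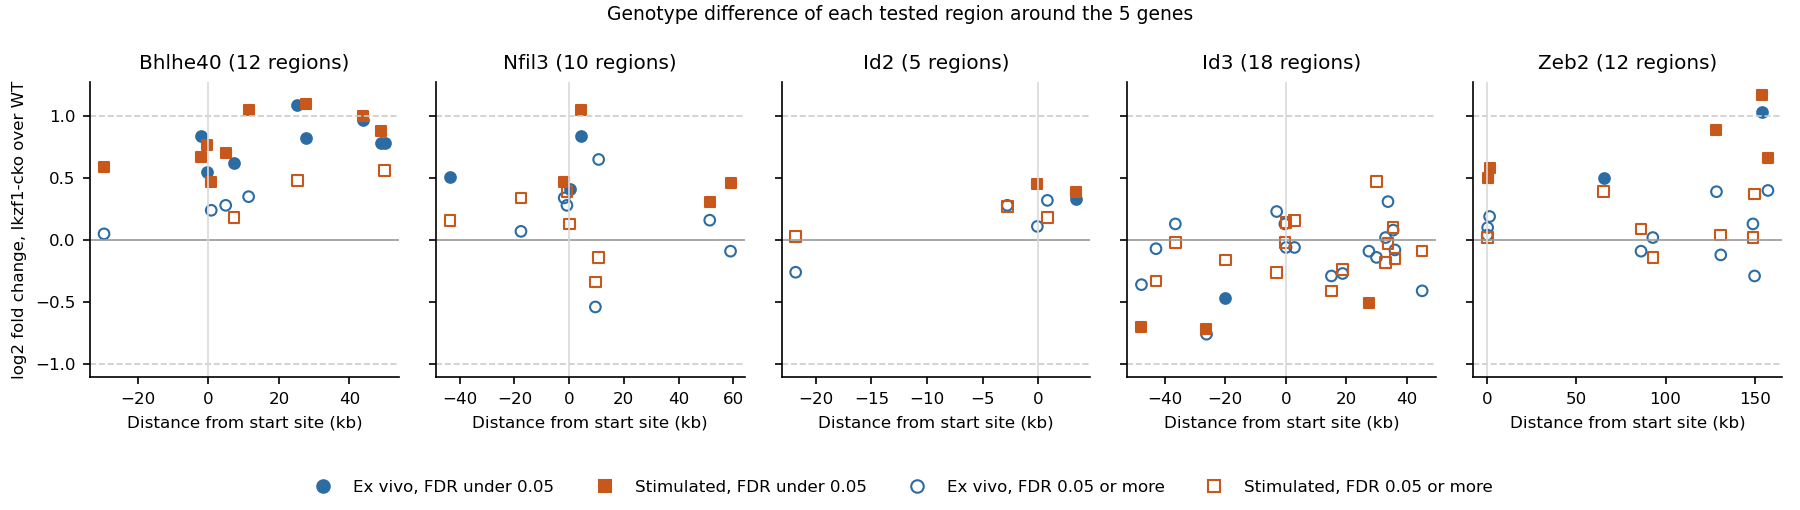
Log2 fold change of Ikzf1-cko over WT (vertical axis) for every tested region, against the distance of its centre from the nearest start site of the gene in kb (horizontal axis, positive in the direction of transcription), for ex vivo (circles) and stimulated (squares) Treg; filled symbols passed FDR 0.05 and dashed lines mark a log2 fold change of 1 and -1. All 12 Bhlhe40 regions lie above 0 in both conditions, whereas the regions at Id3 lie on both sides of 0.

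Bhlhe40 (chr6:108610623-108616919, forward strand) stood out among the 5. All 12 of its tested regions had a positive log2 fold change for Ikzf1-cko over WT in both conditions, with medians of 0.70 ex vivo and 0.68 after stimulation; the 90th percentile over all regions was 0.33 and 0.55. Reads summed over its 17 regions were 302, 314 and 325 CPM in the ex vivo WT libraries and 475, 509 and 416 in Ikzf1-cko. After stimulation the sums were 181, 213 and 195 in WT and 315, 310 and 336 in Ikzf1-cko. Libraries of the 2 genotypes did not overlap in either condition.

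The region over the start site of Bhlhe40 (OCR_95733, chr6:108609146-108611070) also covers the start of the antisense transcript 0610040F04Rik and part of Gm17055, and reads from an open start site cannot be assigned to one strand. It read 54.2, 56.2 and 58.3 FPKM in WT and 81.5, 91.9 and 74.6 FPKM in Ikzf1-cko ex vivo. After stimulation it read 34.8, 40.3 and 35.8 FPKM in WT and 62.2, 61.5 and 65.6 FPKM in Ikzf1-cko. The lowest Ikzf1-cko library was thus above the highest WT library in each condition. The log2 fold changes were 0.55 ± 0.0712 (FDR 1.3e-06) ex vivo and 0.77 ± 0.0777 (FDR 1.5e-08) stimulated, below the threshold of 1 for a call. With loess offsets against abundance, an alternative scaling, they were smaller, at 0.38 ex vivo and 0.36 stimulated. Both differences passed the test under all 20 alternatives.

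The smallest FDR values at this locus for genotype were those of intergenic DNA 27.7 kb downstream of the start site (OCR_95741, chr6:108638045-108639127), whose central sequence is printed above. WT libraries read 34.8, 34.3 and 36.4 FPKM ex vivo, and Ikzf1-cko libraries 63.5, 65.8 and 57.5 FPKM. In stimulated cells the readings were 18.9, 18.2 and 15.9 FPKM in WT and 37.1, 36.3 and 41.1 FPKM in Ikzf1-cko. Stimulated Ikzf1-cko Treg had a mean of 38.2 ± 2.56 FPKM and ex vivo WT Treg 35.2 ± 1.12 FPKM, a pair that was not tested. The genotype difference was 0.82 ± 0.082 ex vivo (FDR 1.8e-08) and 1.10 ± 0.102 stimulated (FDR 3.3e-09), the latter called except with loess offsets (0.77).

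Further regions downstream of Bhlhe40 were called, and 2 of them are described here. At 43.9 kb (OCR_95743, chr6:108654296-108655227) WT libraries read 11.6, 11.4 and 12.1 FPKM and Ikzf1-cko libraries 23.8, 24.6 and 20.2 FPKM ex vivo, a log2 fold change of 0.97 ± 0.124 (FDR 1.2e-06). The stimulated libraries read 7.27, 7.84 and 6.02 FPKM in WT and 14, 13.2 and 15.3 FPKM in Ikzf1-cko, 1.00 ± 0.158 (FDR 8.7e-06), just past the threshold. Each Ikzf1-cko library was above each WT library in both conditions, and without WT or Ikzf1-cko stimulated replicate 3, or with loess offsets, the stimulated fold change dropped under 1. At 11.4 kb (OCR_95737, chr6:108622106-108622475) the genotypes differed after stimulation, with 9.83, 13.3 and 12.9 FPKM in WT and 22.3, 28.1 and 23.8 FPKM in Ikzf1-cko (1.05 ± 0.234, FDR 4.5e-04), a fold change that was 0.91 without WT stimulated replicate 1 and 0.95 without Ikzf1-cko stimulated replicate 2. Ex vivo the libraries of that region overlapped, at 13 to 26.1 FPKM in WT and 20.8 to 31.8 FPKM in Ikzf1-cko (0.35 ± 0.184, FDR 0.17).

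**Figure D2:**
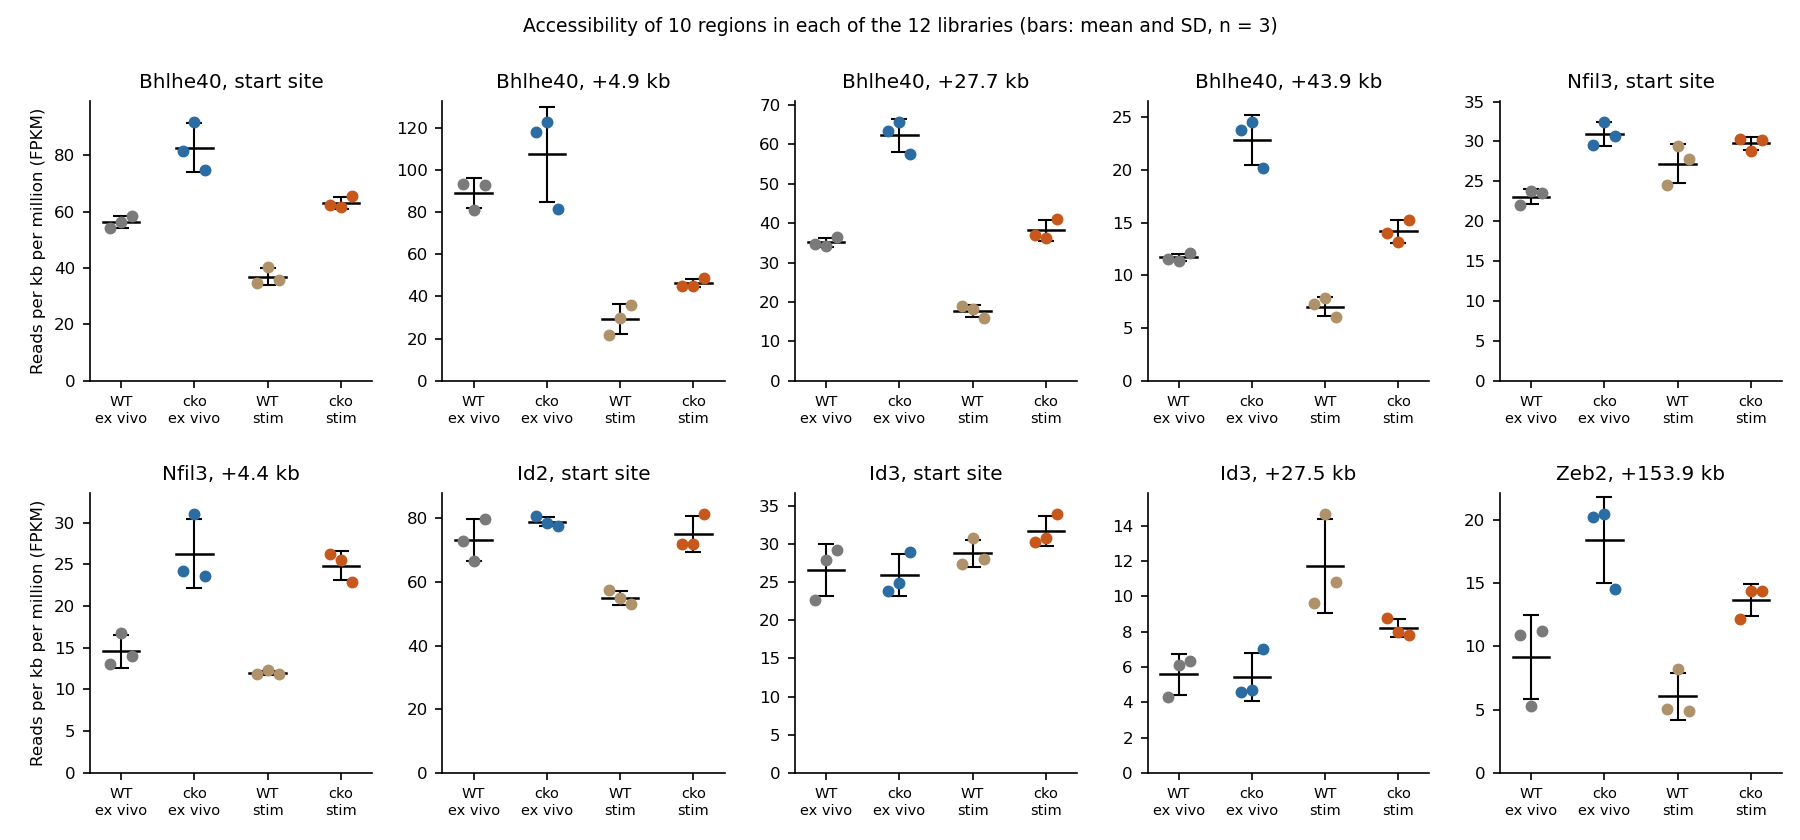
FPKM (vertical axes, from 0) of 10 regions in each of the 12 libraries, by group (points), with mean and SD of 3 libraries (bars); titles give the gene and the distance from its start site. Ikzf1-cko libraries lie above WT libraries in both conditions at the start site, +27.7 kb and +43.9 kb of Bhlhe40, at +4.4 kb of Nfil3 and at +153.9 kb of Zeb2, but not at the start site of Id3.

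At Nfil3 (chr13:53062578-53076442, reverse strand) the highest log2 fold changes between genotypes were those of an intronic region 4.4 kb from the start site (OCR_29736, chr13:53071685-53072409). It read 13, 16.8 and 14 FPKM in WT and 24.2, 31.1 and 23.6 FPKM in Ikzf1-cko ex vivo. After stimulation the WT libraries read 11.9, 12.3 and 11.8 FPKM and the Ikzf1-cko libraries 26.2, 25.5 and 22.9 FPKM. Genotypes did not overlap in either condition, and the log2 fold changes were 0.84 ± 0.133 (FDR 3.3e-05) and 1.05 ± 0.152 (FDR 2.8e-06), the second called except with loess offsets (0.88).

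The start-site region of Nfil3 (OCR_29737, chr13:53075546-53077034) was more accessible in Ikzf1-cko ex vivo, at 29.6, 32.5 and 30.7 FPKM against 22, 23.8 and 23.5 FPKM in WT (0.41 ± 0.0835, FDR 5.9e-04). Stimulated libraries overlapped, at 24.5 to 29.4 FPKM in WT and 28.8 to 30.3 FPKM in Ikzf1-cko (0.13 ± 0.0871, FDR 0.21). With loess offsets the sign was reversed, and the region passed as lower in stimulated Ikzf1-cko (-0.21, FDR 0.042). The third ex vivo region past the test lay upstream, at -43.6 kb. After stimulation, 4 of the 10 regions passed as higher, 2 of them at the neighbouring gene Auh, and with loess offsets only 1 did. Median log2 fold changes over the 10 were 0.31 ex vivo and 0.32 stimulated. Summed over its 17 regions the locus held 158 ± 3.93 (WT) and 190 ± 13.1 (Ikzf1-cko) CPM ex vivo and 142 ± 7.43 and 170 ± 4.96 after stimulation.

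The Id genes differed from each other. At Id2 (chr12:25778666-25780957, reverse strand) no region was called. Its start-site region (OCR_22642, chr12:25780629-25781437) was, with a mean of 73.1 ± 6.59 FPKM in WT ex vivo, the most accessible start site of the 5 genes there. Ex vivo libraries overlapped, at 73.0, 66.5 and 79.7 FPKM in WT and 80.6, 78.5 and 77.7 FPKM in Ikzf1-cko (0.11 ± 0.0769, FDR 0.3). After stimulation they read 57.4, 54.9 and 53.0 FPKM in WT and 72.0, 71.8 and 81.5 FPKM in Ikzf1-cko (0.45 ± 0.0844, FDR 8.0e-05). The region 3.4 kb from the start site, past the 3′ end (OCR_22640, chr12:25777174-25777943), was higher in Ikzf1-cko in both conditions, by 0.33 ± 0.113 (FDR 0.035) and 0.39 ± 0.133 (FDR 0.014), neither of which passed with thinned counts (FDR 0.21 and 0.06). With loess offsets, none of the 5 Id2 regions passed the test in either genotype comparison.

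Id3 (chr4:135699412-135701670, forward strand) was the one locus of the 5 where no region passed the test as more accessible in Ikzf1-cko, although with loess offsets 1 did after stimulation. Log2 fold changes were positive at 6 of its 18 tested regions ex vivo and at 4 stimulated. Its start-site region (OCR_82633, chr4:135699458-135700211) read 22.7, 27.9 and 29.2 FPKM in WT and 23.9, 24.9 and 29.0 FPKM in Ikzf1-cko ex vivo. Stimulated, it read 27.4, 30.8 and 28.1 FPKM in WT and 30.3, 30.8 and 34 FPKM in Ikzf1-cko. Libraries of the 2 genotypes overlapped in both conditions, and the log2 fold changes of -0.06 ± 0.112 (FDR 0.71) and 0.14 ± 0.116 (FDR 0.31) changed sign with the scaling. Regions that passed the test were upstream or at E2f2. OCR_82630 (chr4:135678959-135679829), upstream at -20 kb from the start site, fell ex vivo from 13 ± 1.57 to 9.35 ± 0.476 FPKM (-0.47 ± 0.14, FDR 0.016), although not with TMM, DESeq2 or thinned counts, under each of which no Id3 region passed ex vivo. OCR_82625 (chr4:135651131-135652227), upstream at -47.7 kb, was lower in stimulated Ikzf1-cko Treg, at 8.2, 7.24 and 6.52 FPKM against 12.7, 13.3 and 9.29 FPKM in WT (-0.70 ± 0.177, FDR 0.0015). The median over the 18 Id3 regions was -0.08 ex vivo and -0.16 stimulated, close to the -0.13 and -0.11 of all regions.

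At Zeb2 (chr2:44839154-44972915, reverse strand) the called region was far from the start sites. OCR_62102 (chr2:44811786-44812210), in intergenic DNA past the 3′ end of the gene and 153.9 kb from its nearest start site, was called in both conditions. It lies between Zeb2 and Gtdc1, whose start site is nearer. It read 10.9, 5.3 and 11.2 FPKM in WT and 20.2, 20.5 and 14.5 FPKM in Ikzf1-cko ex vivo. The stimulated values were 5.06, 8.17 and 4.89 FPKM in WT and 12.2, 14.4 and 14.4 FPKM in Ikzf1-cko. No WT library reached the lowest Ikzf1-cko library of its condition, and the log2 fold changes were 1.03 ± 0.216 (FDR 8.7e-04) and 1.17 ± 0.27 (FDR 6.2e-04). The ex vivo fold change went under 1, with FDR at most 0.025, without WT ex vivo replicate 2 or without Ikzf1-cko ex vivo replicate 1 or 2.

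A second region beyond the 3′ end, 128.5 kb from the start site (OCR_62107, chr2:44837061-44837635), was higher in stimulated Ikzf1-cko than in stimulated WT cells, at 20.6 ± 4.6 against 11.1 ± 0.927 FPKM (0.89 ± 0.183, FDR 1.9e-04). OCR_62101, also past the 3′ end, passed as higher in stimulated Ikzf1-cko (0.66 ± 0.166, FDR 0.0013). For both regions the nearest protein-coding start site was that of Gtdc1. Of the 2 regions over annotated Zeb2 start sites, OCR_62117 (chr2:44964709-44966104) read 21.4, 25.3 and 25.4 FPKM in WT and 26.1, 26.4 and 25.3 FPKM in Ikzf1-cko ex vivo, where the libraries overlapped (0.10 ± 0.0887, FDR 0.43). In stimulated cells it read 16.7, 15.2 and 15.2 FPKM in WT and 20.4, 23.3 and 22.9 FPKM in Ikzf1-cko (0.50 ± 0.104, FDR 2.3e-04), a difference that did not pass with loess offsets (0.18, FDR 0.16). Beside it, 1.6 kb from a start site, OCR_62116 passed in stimulated cells (0.58 ± 0.205, FDR 0.019). The other start-site region, OCR_62118 (chr2:44971990-44973142), over the start of the longest annotated span, was weak and flat, with group means of 9.01 to 9.83 FPKM and log2 fold changes of 0.04 ± 0.133 (FDR 0.84) and 0.02 ± 0.147 (FDR 0.92).

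Ranked by the mean of start-site regions in ex vivo WT Treg, Id2 (73.1 ± 6.59 FPKM) came first and Bhlhe40 (56.2 ± 2.04 FPKM) next. Id3 (26.6 ± 3.43), Zeb2 OCR_62117 (24.0 ± 2.32) and Nfil3 (23.1 ± 1.00 FPKM) followed within one another's spread, and Zeb2 OCR_62118 (9.54 ± 0.904 FPKM) was last. These are levels per kb of region. In stimulated Ikzf1-cko Treg the order began in the same way, Id2 at 75.1 ± 5.54 and Bhlhe40 at 63.1 ± 2.16 FPKM, with Id3 (31.7 ± 2.00) and Nfil3 (29.8 ± 0.819 FPKM) again within their spread.

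The 2 genotype comparisons share no library, but the sorted cells were split between both conditions and all 12 libraries were in the same model. 42 of the 57 members had the same direction ex vivo and after stimulation (73.7%, beside 77.6% of all regions), 8 passed the test in both with the same direction, 5 of these at Bhlhe40 and 1 each at Nfil3, Id2 and Zeb2, and none passed in opposite directions. Across the 57 regions Pearson's r between the log2 fold changes was 0.72, and across all tested regions 0.69; regions of one locus and of one library share depth and are not independent. Without a test, all 3 Ikzf1-cko libraries lay above all 3 WT libraries at 19 members ex vivo and 22 stimulated, and below at 3 and 4, where the whole table had 14.9% and 23.2% above and 21% and 34% below.

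**Figure D3:**
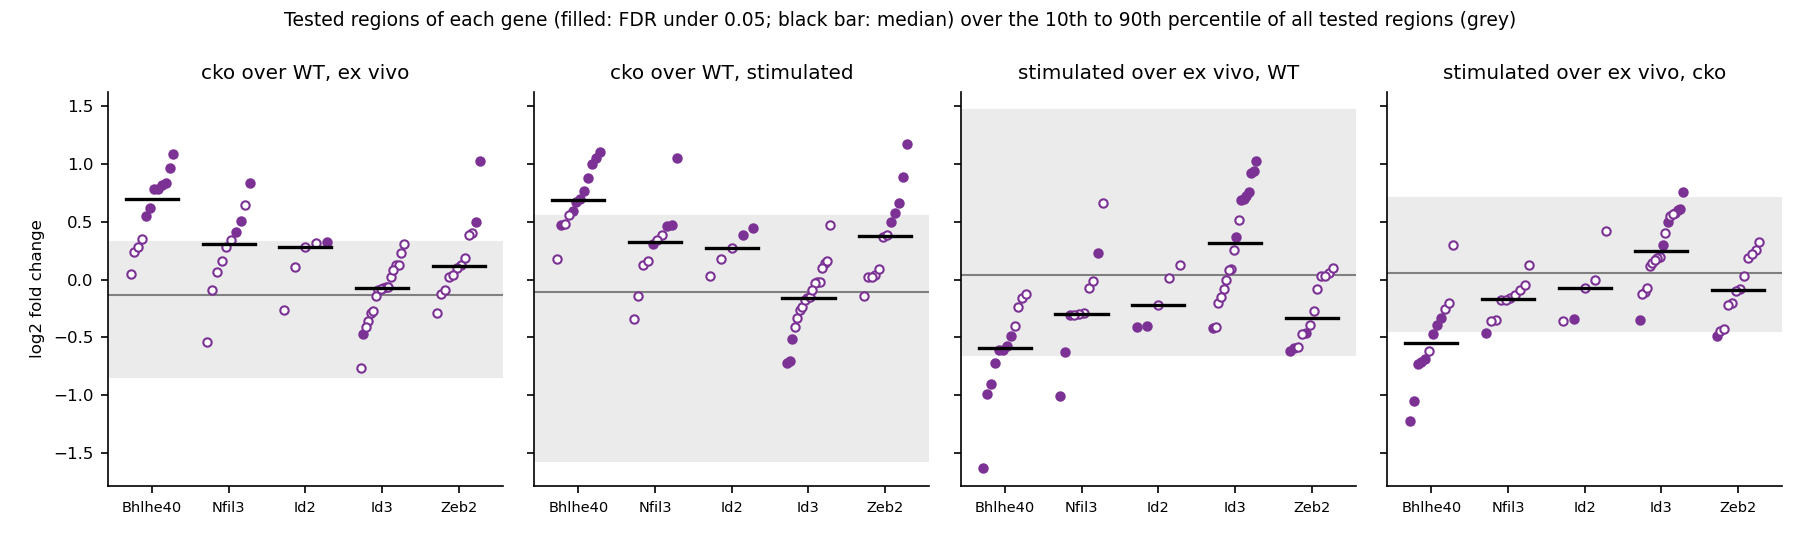
Log2 fold change (vertical axis) of every tested region of each gene in the 4 comparisons of groups, with filled points for FDR under 0.05 and black bars for the gene's median, over the 10th to 90th percentile (grey band) and the median (grey line) of all 69957 tested regions. The Bhlhe40 median lies above the band in both genotype comparisons and below the all-region median in both stimulation comparisons.

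The second question was what 4 hr of stimulation did at these loci. Regions of Bhlhe40 lost accessibility in both genotypes, while several in the Id3 window gained it in WT and, less stably, in Ikzf1-cko. Some of those that rose in WT lay nearer other protein-coding start sites. These were OCR_82636, OCR_82638, OCR_82640 and OCR_82641, nearest E2f2, and OCR_82625, nearest Rpl11. In WT Treg 9 of the 57 members rose and 17 fell, and in Ikzf1-cko Treg 6 rose and 12 fell. Of these, 8 fell at Bhlhe40 in each genotype, and 8 (WT) and 6 (Ikzf1-cko) rose at Id3. The 6 became 1 with DESeq2 and 0 with thinned counts, and the 8 became 5 and 7. Over all tested regions, 26.9% rose and 20.7% fell in WT, and 12% rose and 11.5% fell in Ikzf1-cko. Past both thresholds 1 member was higher and 2 lower in WT, and none higher and 2 lower in Ikzf1-cko, where 17.7% of all regions were called higher and 2.32% lower in WT, and 3.02% and 0.632% in Ikzf1-cko.

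The largest change at any member was in the Bhlhe40 gene body, at OCR_95735 (chr6:108615425-108616027), which covers exon and UTR sequence 4.9 kb from the start site. Ex vivo it was the most accessible of the named regions, at 93.2, 80.9 and 93.0 FPKM in WT and 118, 123 and 81.7 FPKM in Ikzf1-cko. After stimulation it read 21.7, 29.7 and 35.9 FPKM in WT and 45.1, 45.2 and 48.7 FPKM in Ikzf1-cko. Every stimulated library was below every ex vivo library, with log2 fold changes of -1.63 ± 0.147 in WT (FDR 5.7e-10) and -1.22 ± 0.115 in Ikzf1-cko (FDR 4.6e-09), called under all 20 alternatives run for each. Between genotypes it differed after stimulation (0.70 ± 0.153, FDR 4.1e-04; 0.37, FDR 0.052, with loess offsets) while the ex vivo difference missed the threshold (0.28 ± 0.111, FDR 0.067).

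Other Bhlhe40 regions fell by less. The start site (OCR_95733) fell by 0.61 on the log2 scale in WT (FDR 5.7e-07) and by 0.39 in Ikzf1-cko (FDR 9.6e-05). With loess offsets its log2 fold changes were -0.32 in WT and -0.34 in Ikzf1-cko. The +27.7 kb region (OCR_95741) fell by 0.99 (FDR 1.7e-08) and by 0.71 (FDR 6.8e-08). OCR_95736 (chr6:108617620-108618767), 7.3 kb downstream, fell by 0.61 in WT (FDR 4.9e-04) and by 1.05 in Ikzf1-cko (FDR 1.1e-08), from 26.5 ± 2.80 to 12.8 ± 0.362 FPKM, where it was called except without Ikzf1-cko ex vivo replicate 2 (log2 fold change -0.96). Medians over the 12 regions were -0.59 in WT and -0.54 in Ikzf1-cko, and the all-region medians 0.04 and 0.06.

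At Id3, OCR_82638 (chr4:135727837-135729007), which overlaps a start site of the cell cycle gene E2f2, rose on stimulation in WT, from 4.27, 6.11 and 6.36 FPKM to 9.6, 14.7 and 10.8 FPKM (1.03 ± 0.194, FDR 1.0e-04). In Ikzf1-cko it went from 4.56, 4.72 and 7.01 FPKM to 8.8, 8.0 and 7.82 FPKM (0.61 ± 0.169, FDR 0.0085), so that stimulated WT exceeded stimulated Ikzf1-cko (-0.51 ± 0.174 for Ikzf1-cko over WT, FDR 0.014). The WT value was under 1 with DESeq2, without WT ex vivo replicate 1 and without WT stimulated replicate 2, reaching 0.83 at the lowest. OCR_82625, upstream of Id3, rose by 0.94 ± 0.192 in WT (FDR 2.6e-04) and 0.60 ± 0.176 in Ikzf1-cko (FDR 0.013). In Ikzf1-cko neither rise passed with thinned counts (FDR 0.066 and 0.13), and the OCR_82625 one did not with DESeq2 (0.064). The Id3 start site had 0.30 ± 0.103 in Ikzf1-cko (FDR 0.034; 0.13 with TMM and 0.17 with DESeq2) and did not pass in WT (0.09 ± 0.124, FDR 0.56).

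The start site of Id2 and the Zeb2 start-site region OCR_62117 fell in WT and did not pass the test in Ikzf1-cko. The other Zeb2 start-site region, OCR_62118, did not pass in WT (-0.08 ± 0.154, FDR 0.71) or Ikzf1-cko (-0.1 ± 0.125, FDR 0.6). OCR_22642 of Id2 fell by 0.41 in WT (FDR 4.0e-04; -0.15, FDR 0.14, with loess offsets) and had -0.07 ± 0.0738 in Ikzf1-cko (FDR 0.52), while OCR_62117 of Zeb2 fell by 0.62 in WT (FDR 2.8e-05) and had -0.22 ± 0.0853 in Ikzf1-cko (FDR 0.054). At Nfil3, the start site had 0.23 ± 0.0931 in WT (FDR 0.042), which passed in 12 of 20 alternatives and neither with TMM nor with DESeq2, and the intronic OCR_29736 did not pass in WT (-0.29 ± 0.172, FDR 0.16) or Ikzf1-cko (-0.09 ± 0.115, FDR 0.62). The called Nfil3 member, OCR_29729 (chr13:53016874-53018042), lies in an intron of Auh, an RNA-binding mitochondrial enzyme, and fell in WT from 16.5 ± 0.722 to 8.17 ± 0.638 FPKM (-1.01 ± 0.152, FDR 5.0e-06), a fold change that was under 1 in 5 of 20 alternatives, down to -0.77.

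**Figure D4:**
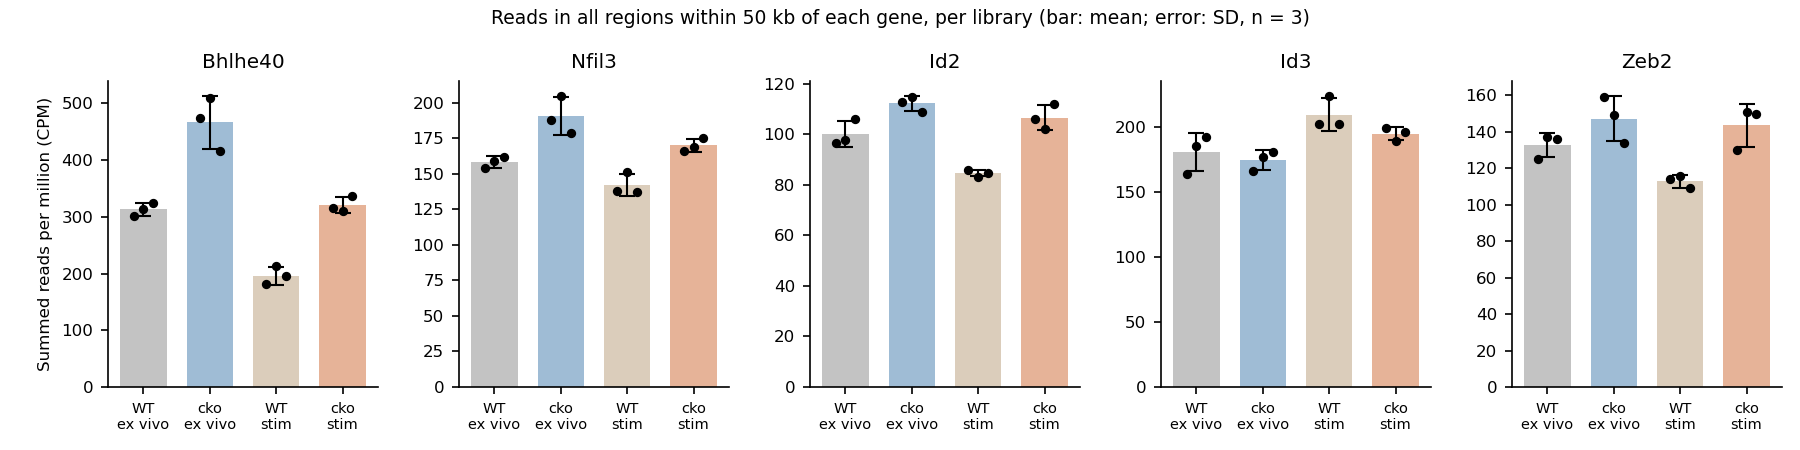
CPM (vertical axes, from 0) summed over all regions of each gene's window in each library (points), with the mean (bar) and SD (error bar) of 3 libraries per group. At Bhlhe40 the Ikzf1-cko bars are the higher ones in each condition (466 against 314 ex vivo, 320 against 196 stimulated) and stimulated bars are lower than ex vivo bars; at Id3 the 4 bars lie between 175 and 210.

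Whether stimulation acted differently in the 2 genotypes was tested by the interaction, the stimulation effect in Ikzf1-cko minus that in WT. None of the 57 members passed the test by edgeR (smallest FDR 0.063) with library totals or by DESeq2, and 11 had an unadjusted p under 0.05; with loess offsets 2 passed as lower, 1 at Bhlhe40 and 1 at Nfil3. Of all tested regions, 5.66% passed as higher and 1.82% as lower, 0.579% and 1.4% past both thresholds. The 3 smallest FDR values among the regions named here were those of the Id2 start site (0.34 ± 0.114, FDR 0.063), the Zeb2 start site OCR_62117 (0.40 ± 0.137, FDR 0.066) and the Auh intron (0.55 ± 0.195, FDR 0.079). So the fall of the Id2 start site and of Zeb2 OCR_62117 in WT, and their non-significant change in Ikzf1-cko, are not shown to differ. Of the 57 members, 47 moved in the same direction in both genotypes (82.5%, beside 74% of all regions), 13 passed in both with the same direction, and none in opposite directions. The 2 stimulation comparisons share no library.

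Scaling moved counts over all regions and over the members. With library totals 411 regions were called higher and 2827 lower ex vivo (12.7% higher); with loess offsets against abundance the split was 907 and 658 (58%). For the stimulated genotype comparison it went from 813 and 14119 to 1638 and 2449, for stimulation in WT from 12386 and 1625 to 2229 and 1924, and for stimulation in Ikzf1-cko from 2113 and 442 to 709 and 718. TMM scaling moved the ex vivo median of all regions from -0.13 to -0.02 and that of the members from 0.13 to 0.25. With loess offsets, the members that fell on stimulation in WT went from 17 to 10, and those higher in stimulated Ikzf1-cko from 20 to 15. Under loess offsets 8 (ex vivo) and 9 (stimulated) Bhlhe40 regions still passed as higher, with medians of 0.64 and 0.63 where all regions had -0.01 and 0.

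Members differed from the average region in several features that the rule did not use. Their median length was 725 bases against 607.5 for all tested regions, and their median GC content 53.6% against 50.5%, from 44.9% at Zeb2 to 59.3% at Id2. Motifs that the encoded factors or their partners bind were counted on both strands of the central 300 bases. The E-box CACGTG, bound by BHLHE40, was in 6 of 57 windows (10.5%, beside 5.94% of all), one of them at Bhlhe40 itself, in OCR_95736. The D-boxes TTATGTAA and TTACGTAA, bound by NFIL3, were in none of the 57 and in 0.779% and 0.0872% of all windows. The E-box CAGGTG, bound by ZEB factors and E proteins, was in 10 of 57 (17.5%, all 25.4%), 6 of them at Id3, and CAGCTG in 14 of 57 (24.6%, all 19%). GGAAA, the core of NFAT sites, overlaps GGGAA only in part of its letters and was in 38 of 57 (66.7%, all 60.2%), and the forkhead word TGTTTAC was in 2 of 57 (3.51%, all 3.77%). No test was made of these shares.

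The 13994 tested regions over start sites were ranked by Pearson correlation with each gene's own start site, on log2(CPM + 1) over the 12 libraries, as a description. For Bhlhe40 the 3 most alike were those of Pcdhgc5 and Immt (0.989 each) and of Gtf3c6 with U3 (0.985). For Nfil3 they were Fubp3 (0.951), Dusp2 (0.935), a phosphatase of MAP kinases, and AW011738 (0.921). D2hgdh and Dguok (0.98 each) and 2610018G03Rik (0.979) were closest to Id2. Those closest to Id3 were Gm11974 (0.946), Dph1 (0.907) and Snx15 (0.895). For Zeb2 OCR_62117 they were BC037032 with Oxct1 (0.983), Sash3 (0.981) and Gm16365 with Traf3ip2 (0.981), and for OCR_62118 Gm13524 (0.872), Chdh with Il17rb (0.797) and Abcc3 (0.792). The points share groups and depth, so 4 group means can set such a value.

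Other genes of the same pathways were counted in the same windows. Of all tested regions, 8.78% passed as higher and 12.7% as lower in Ikzf1-cko ex vivo, and 20.4% and 30.7% after stimulation. On stimulation 26.9% of all rose and 20.7% fell in WT, and 12% rose and 11.5% fell in Ikzf1-cko. The counts of these lists were not tested against those shares. The E proteins and other Id genes (Tcf3, Tcf4, Tcf12, Id1 and Id4), the partners of ID2 and ID3 and their relatives, had 51 tested regions. None passed the test as higher and 6 passed as lower in Ikzf1-cko ex vivo (4 at Tcf4, 2 at Id1), and 1 and 10 after stimulation, 7 of the 10 at Tcf4. On stimulation 13 rose and 7 fell in WT and 9 rose and 5 fell in Ikzf1-cko, with 6 and 7 of the rises at Tcf3, which encodes E2A. The paralogs Bhlhe41 and Zeb1 had 26 tested regions, of which 2 passed as higher and 1 as lower in Ikzf1-cko ex vivo, and 5 and 2 after stimulation. At Bhlhe41 the medians of 10 regions were -0.24 and -0.13, beside 0.70 and 0.68 for the 12 at Bhlhe40. Zeb1 regions fell on stimulation, 11 of 16 in WT and 12 of 16 in Ikzf1-cko, with 1 rise in WT. The PAR bZIP and clock genes (Dbp, Tef, Hlf, Arntl, Clock, Nr1d1, Nr1d2, Per1, Per2, Cry1 and Cry2) had 120 tested regions. Among these regions 13 passed as higher and 10 as lower in Ikzf1-cko ex vivo and 19 and 16 after stimulation. On stimulation 27 of them rose and 16 fell in WT, and 23 rose and 13 fell in Ikzf1-cko.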

How the data were processed

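ATAC-seq libraries of 3 WT and 3 Ikzf1-cko Treg samples per condition (12 in all) were analysed. Per the labels and the study's methods, reads were aligned with Bowtie2 and peaks were called with MACS2 by the authors; the submitters' notes give mm9, whereas the printed methods give a human build for the alignment, and the coordinates matched mm9 gene models. The authors deposited read counts per region, one set of regions for all libraries, and FPKM values (read density per kb, scaled to library totals) for the same regions. Their table of comparisons (fold changes and p-values) was not used. Groups followed the labels. The methods name the 3 libraries per group biological replicates and say that sorted cells were split between both conditions, but nothing ties the replicate numbers across groups, and the numbers were not treated as pairs.

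Counts were tested with edgeR 4.0.16 (R 4.3.3; glmQLFit and glmQLFTest), library totals as scaling, 4 group means and Benjamini-Hochberg adjustment over 69957 regions; the study's scaling on background bins needs reads outside the regions. Alternatives were TMM, loess offsets, DESeq2 1.42.0, other filters, other windows, a replicate block and leaving out each library; thinning to 4808916 reads and windows by protein-coding start sites were added after seeing the data. The fits were tested on simulated data. Standard errors of log2 fold changes were derived from the fold change and the F statistic of the test. Members, lists, motifs and the rule for named regions (start sites, up to 4 called per gene and comparison, and the smallest p per genotype comparison) were chosen with earlier results of these data known. 1 marker gene is not reported here, and 1 called region at Bhlhe40 enters only counts, medians, sums, plots and 1 range.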

Additional observations from a re-analysis of the deposited data

How the results depend on the processing

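Counts of called members depended mostly on the threshold on the fold change and on the window. Without that threshold they were 15 (ex vivo), 23 (stimulated), 26 (stimulation in WT) and 18 (stimulation in Ikzf1-cko), against 2, 5, 3 and 2. With the gene bodies alone they were 0, 1, 1 and 1. With 100 kb on each side they were 5 ex vivo and 1 for the interaction. Those 5 were 3 higher and 2 lower in Ikzf1-cko, where the main window had none lower. For members whose nearest start site was that of the member gene they were 0, 1, 0 and 0, since the antisense 0610040F04Rik starts inside Bhlhe40 and other called members lie nearer Gtdc1, Auh or E2f2; counting protein-coding start sites alone, an alternative chosen after seeing the data, they were 1 ex vivo and 1 for stimulation in WT. Loess offsets gave 4 ex vivo, all higher. No filter gave 3 ex vivo (2 higher and 1 lower), 6 for stimulation in WT (4 and 2) and 4 in Ikzf1-cko (2 and 2). With the main filter stimulation had 1 higher and 2 lower in WT, and 0 and 2 in Ikzf1-cko. A filter of 3.6 CPM in all 12 libraries gave 0 ex vivo, where it removed the called regions before testing.

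Leaving out each library gave 0 to 3 calls ex vivo (0 without WT ex vivo replicate 2 or Ikzf1-cko ex vivo replicate 1, 1 without Ikzf1-cko ex vivo replicate 2), 4 to 6 stimulated, 3 to 6 for stimulation in WT (6 without WT ex vivo replicate 2) and 1 to 2 in Ikzf1-cko (1 without Ikzf1-cko ex vivo replicate 2). With the replicate number as a block the counts were 2, 5, 3, 2 and 0, as without it. Correlations between deviations of same-numbered libraries ran from -0.409 to 0.314, and those of differently numbered libraries from -0.37 to 0.459. Pairing by number was thus not shown, and with 3 libraries per group this check cannot exclude it.

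Of 1592 alternative values of single regions, 28 had the opposite sign, all of values that had not passed the test with library totals. Among these, stimulated Nfil3 OCR_29737 passed with the opposite sign under loess offsets (FDR 0.042). With TMM, Id3 OCR_82633, OCR_82638 and Nfil3 OCR_29729 ex vivo were 0.06, 0.02 and 0.03 and Zeb2 OCR_62107 for stimulation in Ikzf1-cko -0.03; with DESeq2 the first 3 were 0.03, 0.01 and 0.01. With loess offsets, Id2 OCR_22642 ex vivo was -0.03, and stimulated Bhlhe40 OCR_95736, Id3 OCR_82633, Nfil3 OCR_29737 and Zeb2 OCR_62118 were -0.06, -0.12, -0.21 and -0.09; the last was 0.12 for stimulation in WT. Leaving out each library, ranges that crossed 0 were -0.33 to 0.07 for a Bhlhe40 region and -0.14 to 0.01 for Zeb2 OCR_62118 (stimulation in WT), -0.15 to 0.05 for Nfil3 OCR_29736 and -0.12 to 0.18 for Zeb2 OCR_62107 (stimulation in Ikzf1-cko), -0.15 to 0.01 for Id3 OCR_82633, -0.3 to 0.02 for Id3 OCR_82638, -0.21 to 0.02 for Nfil3 OCR_29729 and -0.02 to 0.13 for Zeb2 OCR_62118 (ex vivo), and -0.07 to 0.07 for Zeb2 OCR_62118 (stimulated). The cause was not tested.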
